A study of Mus musculus with 17 samples.

Results

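The H3K9ac peaks described here are those whose nearest annotated gene start, in the authors' deposited peak table, belongs to a microRNA gene. H3K9ac is acetylation of lysine 9 of histone H3, a mark found mainly at active promoters and enhancers. A peak was taken when its nearest gene was named Mir followed by a digit, or Mirlet7, at any distance. The rule gave 1990 of the 57499 peaks, with 545 microRNA names at 550 places in the mm10 mouse genome. The rule used no measured value, but the Mir802, Mir6995 and Mir5098 loci in it were singled out with results of these data known.

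The livers came from C57BL/6 mice fed for 10 weeks on a high-fat diet (HFD, 60% of calories from fat) or a control diet (CD, 18%). Each diet has 3 H3K9ac chromatin immunoprecipitation libraries, labelled A, C and D on CD and A, B and D on HFD, and 4 polyA RNA libraries, labelled A to D. Of 17 labelled samples, 3 (an input and 2 of open chromatin) were not analysed here. No genetic change is labelled. The labels give neither age nor sex, and none says that a letter ties an animal on one diet to one on the other. A change in bulk liver cannot be told apart from a change in the makeup of its cells.

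A microRNA is cut from a hairpin within a longer primary transcript, first by Drosha in the nucleus and then by Dicer in the cytoplasm. The mature strand of about the length printed below guides an Argonaute protein to messenger RNAs, mainly through its seed, bases 2 to 8 from the 5′ end. Many hairpins lie in introns of protein-coding host genes, others have promoters of their own, often far upstream, and miR-122 is the most abundant microRNA of hepatocytes. PolyA RNA sequencing does not measure mature microRNAs, so the RNA values below are of host genes, overlapped genes and unspliced or host transcripts.

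The sequences below are mature microRNAs of names that the results return to: Mir802, Mir6995, Mir3968, Mir339, Mir6922, Mir17 and Mir29b-1 had peaks that differed between the diets, by large or small amounts, and miR-29a is shown for the seed it shares with miR-29b. The miR-26 family is shown because the peak over Mir26b was among the strongest and did not pass the test. The list is not a ranking by size of change. They come from RefSeq (GRCm38.p6, the assembly that mm10 names), are written 5′ to 3′, and carry the seed in capitals.
mmu-miR-802-5p: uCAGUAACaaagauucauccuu
mmu-miR-802-3p: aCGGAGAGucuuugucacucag
mmu-miR-6995-5p: cUGGGAGUagaagggggaaacca
mmu-miR-6995-3p: uGUGUCCCcuuccucucacag
mmu-miR-3968: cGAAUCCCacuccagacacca
mmu-miR-339-5p: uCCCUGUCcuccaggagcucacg
mmu-miR-6922-5p: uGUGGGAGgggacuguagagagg
mmu-miR-17-5p: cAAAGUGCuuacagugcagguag
mmu-miR-29a-3p: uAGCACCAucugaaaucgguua
mmu-miR-29b-3p: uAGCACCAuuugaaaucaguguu
mmu-miR-26a-5p: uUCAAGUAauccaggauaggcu
mmu-miR-26b-5p: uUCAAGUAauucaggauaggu

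The Mir802 hairpin itself lies at chr16:93369720-93369816 on the plus strand (97 bases), and its capitals are the arms that become miR-802-5p and miR-802-3p.
Mir802 hairpin: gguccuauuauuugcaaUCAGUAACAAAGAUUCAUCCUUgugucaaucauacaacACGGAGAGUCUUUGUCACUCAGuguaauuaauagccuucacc

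RefSeq held 798 mature sequences for 486 of the 545 names. These carried 712 distinct seeds, of which 64 were shared by more than 1 name. The seed AGCACCA of miR-29 was shared by Mir29a, Mir29b-1 and Mir29b-2, whose 42 peaks included 5 that were lower on HFD, all 5 named for Mir29b-1 (1.55% of all peaks were lower). UCAAGUA of miR-26 was shared by Mir26a-1, Mir26a-2 and Mir26b, and none of their 13 peaks passed the test described below or had an unadjusted p under 0.05. GUGGGAG of miR-6922-5p, whose hairpin lies in Srebf1, was also the seed of the 5p strand at Mir6993, in Fads1. Their group of 4 names had 8 peaks, of which 1, named for Mir6922, was higher (0.835% of all peaks were higher). A shared seed here means shared letters only.

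Total counts in the peaks ran from 9255635 to 12149497 per H3K9ac library, and total RNA counts from 31802893 to 37596560. Levels are given as CPM, counts scaled to the same library total, and a peak or gene is said to have risen or fallen when its adjusted p was under 0.05 in edgeR's quasi-likelihood test over all peaks or all genes, with Benjamini-Hochberg adjustment. The tissue label matched its markers: Alb, the albumin gene, had the highest RNA level of all genes (70081 CPM on CD), and Apoa1 and Ttr, hepatocyte secretory genes, ranked 13 and 20. None of the 15 marker genes measured, of hepatocytes or of other cells, passed the test in edgeR or DESeq2, and 2 had an unadjusted p under 0.05. Their log2 differences ran from −1.03 for Krt19, a bile duct keratin gene (2.11 and 1.04 CPM), to 0.41 for Stab2, an endothelial scavenger receptor gene (30.3 and 40.1 CPM). Of the hepatocyte microRNAs, Mir194-2 and Mir192 hairpins lay under 1 strong peak, described below. The labels do not say how the animals or extractions were arranged, and p-values measure only the spread between these samples.

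Near the named start, microRNA-nearest peaks were weaker than the peaks of other genes. The named start was the 5′ end of the hairpin at 447 of the 448 places matched to a RefSeq hairpin. The levels near microRNA starts are thus of hairpin surroundings, and microRNA promoters were not compared with other promoters. Within 1000 bases of the named start, the 227 microRNA-nearest peaks had a median level of 3.36 CPM on CD, against 35.2 CPM for the 13603 peaks nearest to other genes. Only 53 of the 227 (23.3%) reached 20 CPM, against 62.4% of the others. The difference of the medians was −3.33 ± 0.09 on the log2 scale (SD, n = 6 libraries), with microRNA-nearest medians of 3.22 to 3.82 CPM and other medians of 34.7 to 36.5 CPM, so that the ranges were far apart. It was negative in 6 of 6 libraries, and the two-sided exact sign-flip permutation test gave p = 0.0312, the smallest it can give, and 0.0625 after adjustment over the 3 distance classes. The 6 libraries measure the same peaks, so this test speaks of the libraries and not of other peaks. In both farther classes the same test also gave an adjusted p of 0.0625, at mean log2 differences of only −0.06 and 0.07. It therefore cannot tell a wide gap from a slight one, and the size of the gap rests on the medians. The microRNA-nearest peaks were also shorter, with a median of 788 against 1322 bases, and per kilobase the gap remained, at 5.10 against 24.7 CPM.

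**Figure D1:**
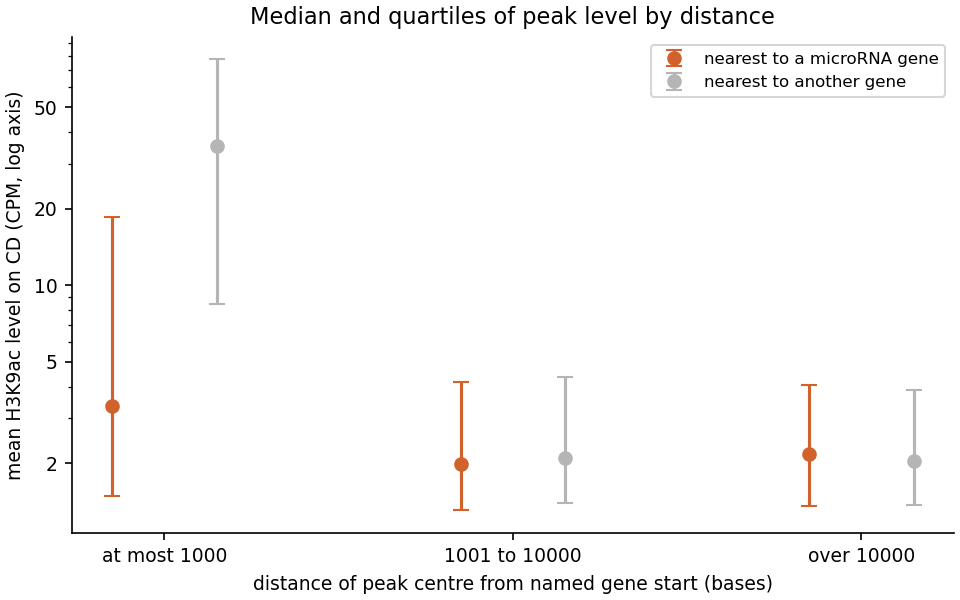
Median (point) and quartiles (bars) of the mean CD level of each peak, in CPM on a log axis, for peaks nearest to a microRNA gene and to another gene in 3 classes of distance. The medians are 3.36 and 35.2 CPM within 1000 bases and lie close together farther out.

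Farther out the medians lay close together. Between 1000 and 10000 bases the median was 1.98 CPM for 776 microRNA-nearest peaks and 2.10 CPM for 17783 others. Beyond 10000 bases it was 2.18 CPM for 987 and 2.03 CPM for 24123. The peaks near microRNA starts that also held the start of another gene were the strong ones: 40 of the 219 that could be checked (18.3%, against 74.0% of other peaks) had a median of 75.9 CPM, and the 179 without had 2.51 CPM. The limit of 1000 bases cut through weak and middling peaks. Just inside it lay the Mir6400 peak at −994 (1.44 CPM on CD and 1.62 on HFD) and the Mir6769b peak at +991 (21.3 and 25.9). Just outside lay the Mir7001 peak at −1003 (1.16 and 1.76) and the Mir3067 peak at +1006 (1.58 and 1.57). A minus sign marks a peak whose centre lies upstream of the named start.

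Of the 12 strongest peaks, 4 in each class, 8 did not pass the test. Mir26b, hosted by Ctdsp1, lay under a peak at chr1:74389432-74398348 with 335 ± 8.27 CPM on CD and 327 ± 7.38 on HFD (SD, n = 3; adjusted p = 0.92). Mir1191b, in an intron of Nfic, a nuclear factor I gene, had 313 ± 42.0 and 319 ± 24.9 CPM, Mir3569 had 234 ± 8.58 and 218 ± 16.9, and Mir193a had 227 ± 18.2 and 222 ± 14.3. None of these passed the test, and in each the diets overlapped. Mir7085 had 195 ± 20.9 and 231 ± 16.8 CPM, with an adjusted p of 0.07. It stayed short of the threshold in 9 of 12 alternatives, with a lowest adjusted p of 0.0024. Beyond 10000 bases, the peaks at Mir5106 (103 CPM on CD), Mir30d (102) and Mir6951 (84.1) did not pass the test either. Mir339 and Mir3073b within 1000 bases, Mir6922 between 1000 and 10000 and Mir8101 beyond it were also among the 4 strongest of their classes and did pass, as given below.

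The members were unevenly spread over the names. A name had a median of 2 peaks, 203 names had 1 and 41 had 10 or more. Introns held 1185 of the 1990 (59.5%, against 53.9% of other peaks), 5′ untranslated regions 11 (0.553% against 6.17%), and 45.8% lay upstream of the named start against 30.9% of other peaks. The most peaks were nearest to Mir29b-1 (40, of which 5 fell), Mir7237 (32, none passing the test), Mir3075 (31, none), Mir6995 (30, of which 9 fell) and Mir3089 (27, none). Of all peaks, 1.55% fell. Of the 90 peaks of Mir7237, Mir3075 and Mir3089, 10 had an unadjusted p under 0.05. DESeq2 called none of the 90, but it gave an adjusted p to only 945 of the 1990 members. Peaks around 1 name share a neighbourhood and are not independent of each other.

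A name in the deposited table is a place, and the place is not always that of the microRNA in RefSeq. The deposited start was within 10 bases of the RefSeq gene for 516 of the 550 places, with 1880 peaks. RefSeq put 28 other places, with 93 peaks, on another chromosome. Among them are all 3 places called Mir5098, on chromosomes 8, 11 and 17, since RefSeq lists Mir5098 at chr5:77272757-77272838, and also Mir6364 on chromosome 2 (chromosome 16 in RefSeq). Another 3 places, with 5 peaks, lay elsewhere on the same chromosome, and 3 places, with 12 peaks, had no RefSeq entry by that symbol. Mir802, Mir6995, Mir29b-1, Mir122 and Mir339 were at their RefSeq places. What follows calls the chromosome 17 peaks by their deposited name and by the gene that holds them, Ppard.

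Being nearest is also not the same as covering a hairpin. Only 141 of the 1990 peaks overlapped their own hairpin. Of 1005 RefSeq hairpins, 216 lay under a peak, 159 of them under a microRNA-nearest peak and 57 only under peaks nearest to other genes. The 53 such peaks were stronger, with a median of 93.5 CPM on CD against 11 for the 142 microRNA-nearest peaks that held a hairpin. The hairpin of Mir126a, an endothelial microRNA hosted by Egfl7, was among them, in a peak with 169.7 CPM on CD and 156.0 on HFD (log2 difference −0.12, SE 0.07, adjusted p = 0.60). Of the 53, 1 passed the test: the peak at chr15:85701308-85708452 over Mirlet7c-2 and Mirlet7b fell from 114 to 90.9 CPM (log2 difference −0.33, SE 0.08, adjusted p = 0.011). That call at the Lincppara-named peak was lost on leaving out CD A (0.21), CD C (0.070), HFD A (0.071) or HFD B (0.070).

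On HFD, 46 microRNA-nearest peaks changed, 7 up and 39 down, which is 2.31% of the 1990 and close to the 2.39% of all peaks that changed. Among all peaks 0.835% rose and 1.55% fell. In 306 of the 1990 (15.4%) the values of the diets did not overlap, and the same share, 15.4%, was found over all peaks. The median log2 difference was −0.02 for the members and −0.00 for all peaks. By distance, 6 of 227 peaks changed within 1000 bases (2.64%, against 2.73% of all peaks in that class), 16 of 776 between 1000 and 10000 bases (2.06% against 2.28%) and 24 of 987 beyond (2.43% against 2.28%). The shares lie near the background in every class and say nothing particular about the microRNA-nearest peaks.

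**Figure D2:**
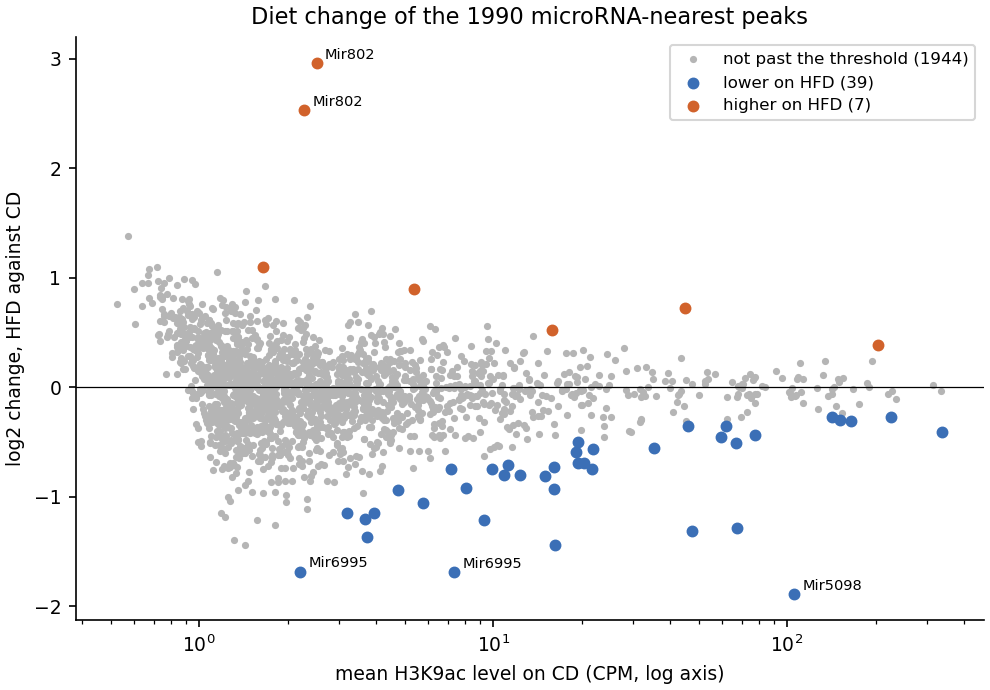
Log2 difference between the diets (vertical axis, HFD against CD) against the mean CD level in CPM (log axis) for each of the 1990 microRNA-nearest peaks. The 7 that rose and the 39 that fell are coloured, and the Mir802 peaks sit alone at the top while the strongest Mir5098 peak sits lowest at a high level.

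Many of the changes lay at few names. The 46 peaks had 25 names, and 24 of the peaks lay at Mir6995, Mir5098, Mir29b-1, Mir122 and Mir802. These names were picked for their calls and had 30, 10, 40, 14 and 2 peaks. How far changes gather by name among all peaks was not tested. Of the 46, 15 differed at least 2-fold, 3 up and 12 down, and 40 had no overlap between the diets. Introns of genes that are not microRNAs held 32 of the 46, beside 1185 of all 1990 members (59.5%). Of the 46, 7 overlapped their own hairpin, beside 141 of the 1990. The changed peaks were stronger than the rest, with a median CD level of 16.2 CPM against 2.12 CPM for the members that did not pass. Weak peaks have few reads with which to pass the test, so this gap is a description of the calls. The authors' deposited table gave a false discovery rate under 0.05 to 43 members, 7 up and 36 down, and 40 of these are among the 46. Leaving out the HFD library B left 24 changed members, leaving out HFD D gave 63, and without HFD D 31.7% of the changed members were higher, against 15.2% with all libraries. All peaks moved likewise: 563 changed without HFD B (0.981%) and 1862 without HFD D (3.24%), of which 852 were higher, against 1372 with 480 higher when all libraries were used.

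Mir802, which in mouse liver is known to rise in obesity, had the largest rise of all members. The deposited table puts no intron at its peaks and names 1810053B23Rik as the other gene nearby. The upstream peak at chr16:93368282-93369210, centred at −973, had 3.04, 1.92 and 2.57 CPM in CD A, C and D and 22.5, 21.5 and 14.1 CPM in HFD A, B and D. Every HFD library was above every CD library, with HFD D the lowest of the HFD libraries. These levels rest on 34, 23 and 26 reads on CD and 264, 248 and 128 on HFD. The means were 2.51 ± 0.56 and 19.4 ± 4.62 CPM (SD, n = 3), a log2 difference of 2.96 (SE 0.20, adjusted p = 1.7e-17).

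The peak that holds the Mir802 hairpin, at chr16:93369393-93370562 and +258, had 2.14, 2.42 and 2.28 CPM on CD and 16.2, 14.2 and 9.12 CPM on HFD. The diets were again far apart and HFD D again the lowest on HFD. The log2 difference was 2.53 (SE 0.22, adjusted p = 1.1e-13). The authors' deposited table gives log2 differences of 2.96 and 2.53 for these Mir802 peaks. Both calls held in every alternative tried. On CD both Mir802 peaks lay below the median of 3.36 CPM of microRNA-nearest peaks within 1000 bases, and on HFD both lay above the HFD median of 3.81 CPM.

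Near Mir802 lie 5 peaks that are named for 1810053B23Rik. All 5 had positive log2 differences, and 1 passed the test: chr16:93354947-93355522 went from 0.988 to 2.84 CPM (log2 difference 1.52, SE 0.33, adjusted p = 0.0020). The other 4 had log2 differences of 0.92 to 1.46 and adjusted p of 0.063 to 0.55, at CD levels below 1 CPM. Of all peaks, 0.835% rose. RNA of 1810053B23Rik and of the Mir802 primary transcript was not analysed here.

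Over log2 CPM in 6 libraries, the peaks most correlated with the upstream Mir802 peak were Mir3075 at −32860, in Zmiz1 (r = 0.98), Mir6397 at −16166, in Scp2, a sterol carrier gene (r = 0.97), Mir6995 at +7105 (r = 0.97), Mir1948 at +8665, in Ttc39c (r = 0.97), and Mir6993 at +2303, in Fads1, a fatty acid desaturase gene (r = 0.96). The 2 Mir802 peaks had r = 0.99 with each other. These r describe libraries that share diet and depth and carry no test. None of the 5 passed the diet test, with log2 differences of 0.36 to 0.80, the nearest being Mir6397 with 27.9 ± 0.64 CPM on CD and 35.7 ± 2.91 on HFD (adjusted p = 0.062).

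**Figure D3:**
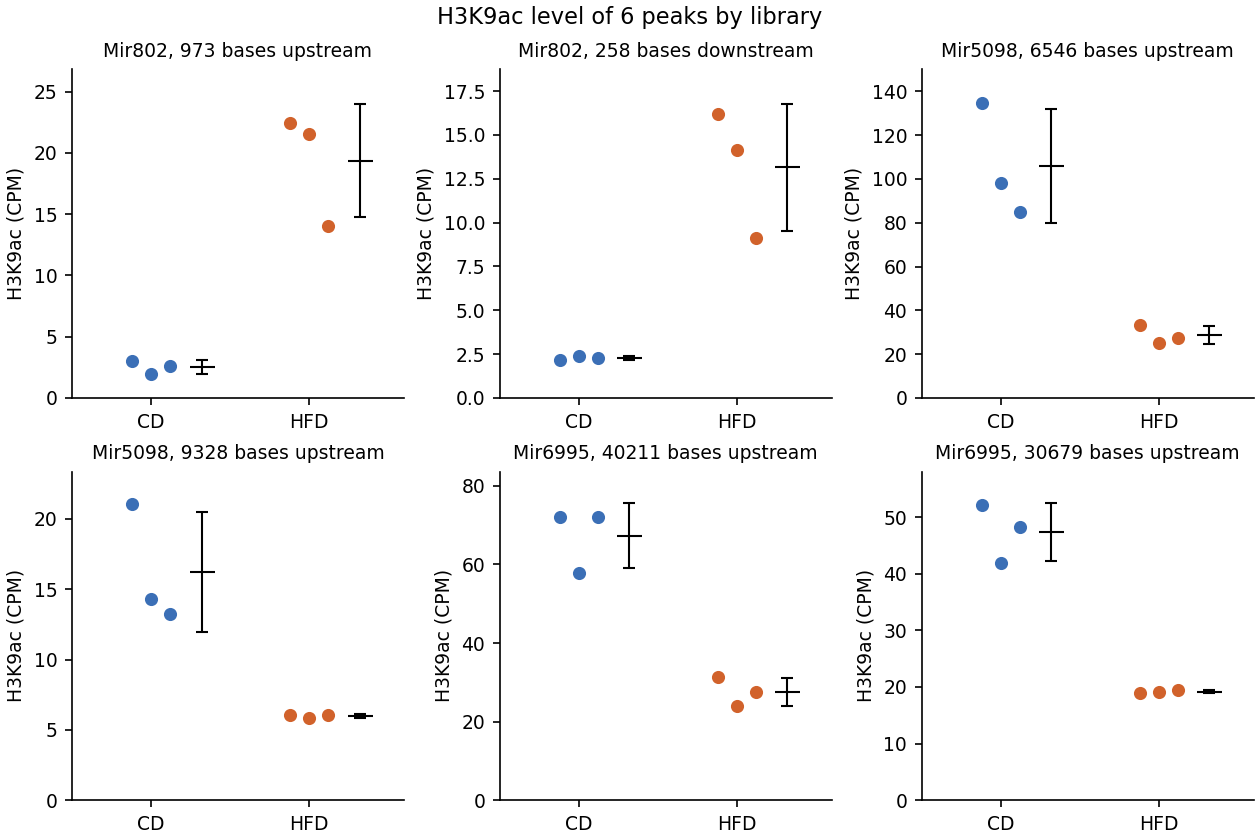
H3K9ac level in CPM of 6 peaks at Mir802, Mir5098 and Mir6995 in each library, with the mean and SD (bars) beside the 3 libraries of each diet. In every panel the diets are apart: HFD is above CD at Mir802 and below it at the other 4 peaks.

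The deepest fall was in Ppard, the gene of the nuclear receptor PPARδ, which controls fatty acid use. The deposited table names 7 peaks in Ppard introns for Mir5098, and 5 of them fell (1.55% of all peaks fell). The peak at chr17:28278467-28281868, at −6546, had 135, 98.3 and 84.8 CPM in CD A, C and D and 33.2, 25.2 and 27.6 CPM in HFD A, B and D. The lowest CD library was far above the highest HFD library. The means were 106 ± 25.9 and 28.7 ± 4.12 CPM (SD, n = 3), a log2 difference of −1.88 (SE 0.11, adjusted p = 7.1e-21), the smallest p of all members.

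The flanking Mir5098 peaks in Ppard fell by less. At chr17:28282068-28283831 (−9328) the level went from 16.2 ± 4.24 to 5.97 ± 0.13 CPM, with a log2 difference of −1.44 (SE 0.18, adjusted p = 2.6e-08). At −3935 it went from 9.29 to 4.00 CPM (log2 difference −1.21, adjusted p = 3.8e-05), and at −16811 from 16.1 to 8.44 CPM (−0.93, adjusted p = 1.2e-04). At −13305 it went from 21.8 to 13.0 CPM (−0.75, adjusted p = 5.1e-04), a call that was lost without CD A (adjusted p = 0.068). In all 5, CD A was the highest library. The weakest pair did not pass: 4.32 and 3.28 CPM at −10940 (adjusted p = 0.58), and 1.38 and 1.59 CPM at −18072 (0.89). The fallen peaks thus lay between 3935 and 16811 bases from the deposited start, on both sides of the weak peak at −10940.

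The start of Ppard did not pass the test. The peak at the Ppard start, chr17:28232526-28233734, had 85.7 ± 2.97 CPM on CD and 80.4 ± 4.65 on HFD (log2 difference −0.09, SE 0.08, adjusted p = 0.76). None of the 32 neighbouring peaks that are named for other genes or for Ppard itself passed the test in edgeR, and 4 had an unadjusted p under 0.05. DESeq2 called none of the 32, but it does not adjust p for every weak peak. Ppard RNA was 36.7, 26.9, 33.2 and 34.8 CPM in CD A to D and 6.95, 5.91, 5.91 and 6.48 CPM in HFD A to D. The groups were far apart, and the fall was from 32.9 ± 4.25 to 6.31 ± 0.50 CPM (SD, n = 4; log2 difference −2.38, SE 0.13, adjusted p = 7.7e-06), held in every alternative. The Mir5098-named peaks on chromosomes 8 and 11 did not pass: 5.40 and 6.27 CPM at −50170, 1.15 and 1.23 CPM at −962, and 0.870 and 1.03 CPM at +11760 in Rptor, the mTOR partner gene.

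Mir6995 had the most changed peaks of any name, all 9 in introns of Sh3pxd2a, the gene of the scaffold protein TKS5 of invadopodia. Of its 30 peaks 26 had negative log2 differences, and 9 fell. Of all peaks, 1.55% fell, and their median log2 difference was −0.00. The peak at chr19:47312270-47315328, at −40211, had 72.2, 57.8 and 72.1 CPM on CD and 31.3, 24.1 and 27.5 CPM on HFD. No HFD library came near the lowest CD library. The means were 67.4 ± 8.25 and 27.6 ± 3.60 CPM, a log2 difference of −1.29 (SE 0.10, adjusted p = 1.6e-14). The broad peak at chr19:47301194-47307340, at −30679, had 52.1, 41.9 and 48.3 CPM on CD and 18.9, 19.1 and 19.4 CPM on HFD (log2 difference −1.31, SE 0.11, adjusted p = 1.1e-13). The HFD libraries were almost equal there.

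Smaller Mir6995 peaks fell too, farther up and closer in. At −63550 the level went from 7.35 ± 0.86 to 2.25 ± 0.44 CPM (log2 difference −1.69, adjusted p = 2.2e-07), at −43416 from 15.0 to 8.55 CPM (−0.81, 7.7e-04) and at −42103 from 2.21 to 0.671 CPM (−1.68, 0.0057). The weak peak at −42103 got an adjusted p in only 10 of 12 alternatives. These calls held in every alternative that gave an adjusted p. The calls at −6236, −8376, −50044 and −65192 did not, with adjusted p of 0.068 without HFD A for −6236, 0.20 and 0.18 without HFD B for −8376 and −50044, and for −65192 on leaving out CD D (0.10), HFD B (0.077) or HFD D (0.072). Between the fallen peaks lay many that did not pass. The strongest of them, at −45974, had 21.8 ± 1.92 CPM on CD and 20.3 ± 2.06 on HFD (log2 difference −0.10, SE 0.13, adjusted p = 0.86). No Mir6995 peak lay within 1000 bases of the hairpin, and the closest, at −2931, had 3.06 and 2.06 CPM (adjusted p = 0.43).

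At the start of Sh3pxd2a, chr19:47462781-47465776, the fall was smaller, from 162 ± 12.6 to 130 ± 11.1 CPM (log2 difference −0.31, SE 0.08, adjusted p = 0.011). The call was lost with DESeq2 (0.055) and on leaving out CD A (0.12), CD D (0.065), HFD A (0.13) or HFD B (0.21). Sh3pxd2a RNA was 65.6, 94.9, 95.4 and 85.0 CPM on CD and 43.5, 57.3, 64.2 and 78.9 CPM on HFD. The diets overlapped, and the log2 difference of −0.48 (SE 0.18) did not pass the test (adjusted p = 0.15).

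**Figure D4:**
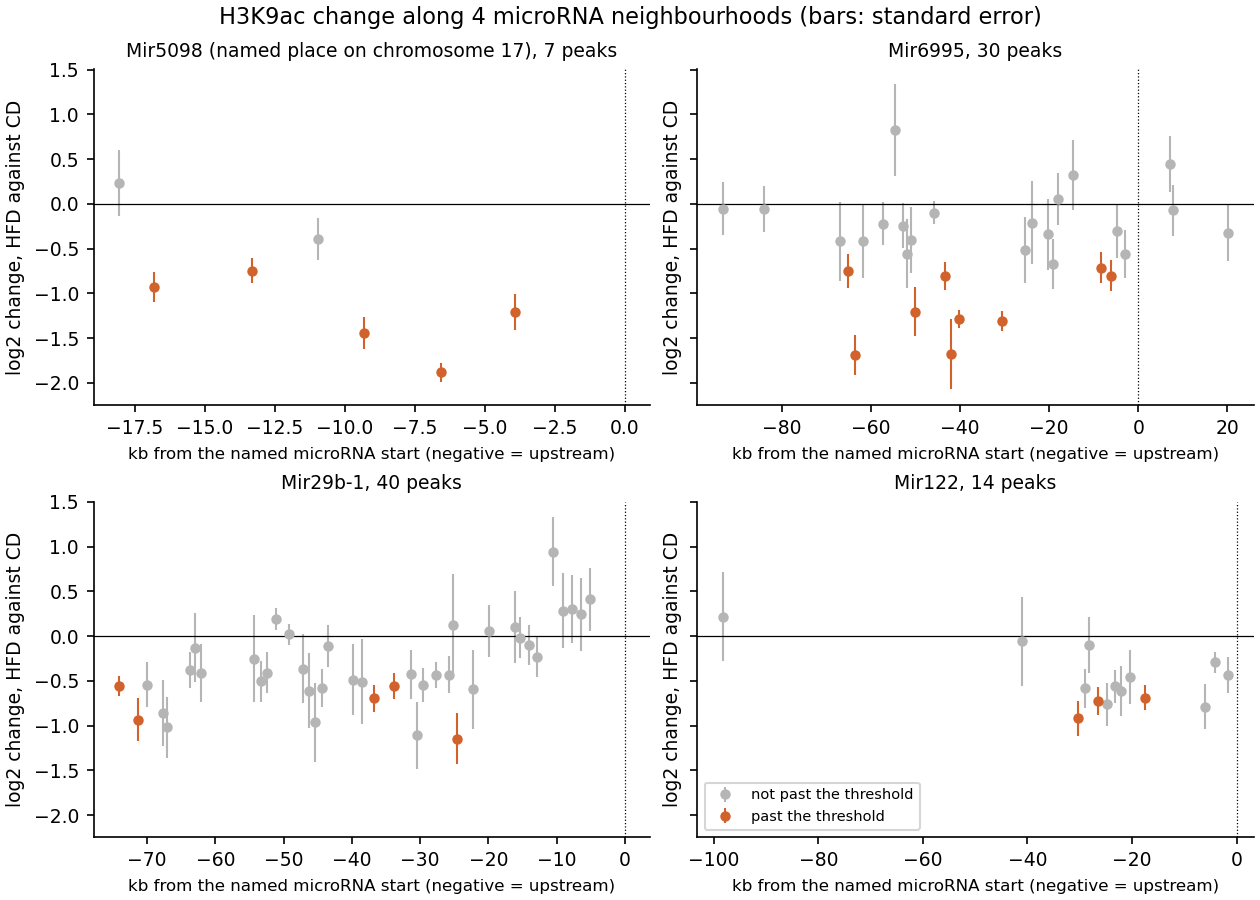
Log2 difference between the diets (HFD against CD, bars for the standard error) of each peak named for Mir5098 on chromosome 17, Mir6995, Mir29b-1 and Mir122, against its distance in kilobases from the deposited microRNA start. Peaks past the threshold are coloured, and 5, 9, 5 and 3 of them fell, with peaks that did not pass between them.

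Mir122, the hepatocyte microRNA, had 14 peaks, 13 of them with negative log2 differences and 3 that fell (1.55% of all peaks fell). All 3 were in a block 17481 to 30279 bases upstream of the hairpin. The peak at −17481 went from 19.5 ± 1.5 to 12 ± 0.50 CPM (log2 difference −0.69, SE 0.14, adjusted p = 0.0010), that at −26583 from 16.1 ± 1.5 to 9.72 ± 1.31 CPM (−0.73, SE 0.16, adjusted p = 0.0019), and that at −30279 from 8.10 ± 0.79 to 4.32 ± 0.75 CPM (−0.92, SE 0.20, adjusted p = 0.0023). In each the diets did not overlap, and the last call was lost without HFD B (adjusted p = 0.098). Nearer to Mir122 the values were lower on HFD but did not pass: 6.56 and 4.81 CPM at −1557 (log2 difference −0.44, adjusted p = 0.38) and 31.9 and 26 CPM at −4150 (−0.29, adjusted p = 0.26), its strongest peak.

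Mir29b-1, one of the miR-29 family that targets collagen messages, had 40 peaks over 74139 bases. Of these, 30 had negative log2 differences and 5 fell (1.55% of all peaks fell). The far peak at chr6:31135187-31139275 (−74139), in Lincpint, a long noncoding RNA gene, fell from 35.2 ± 1.85 to 23.8 ± 1.46 CPM (log2 difference −0.56, SE 0.11, adjusted p = 7.8e-04) in every alternative. The other 4 of Mir29b-1 were less firm: without CD D the adjusted p was 0.24 at −36802, 0.49 at −33766, 0.15 at −71264 and 0.073 at −24609, and without HFD B it was 0.053, 0.092, 0.059 and 0.080. Without HFD A it was 0.15 at −33766, 0.13 at −71264 and 0.068 at −24609. DESeq2 did not call these either (adjusted p = 0.077 at −33766, 0.076 at −71264 and 0.073 at −24609). The closest peak to Mir29b-1, at −5145, had a log2 difference of 0.41 (adjusted p = 0.76).

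Within 1000 bases of the start, besides the Mir802 pair, 1 peak rose and 3 fell. The Mir3968 peak at chr11:115446266-115450127 (−137), over the hairpin, had 43.5, 36.6 and 54.3 CPM on CD and 75.7, 91.6 and 52.5 on HFD. HFD D lay below CD D, and the mean rose from 44.8 ± 8.91 to 73.3 ± 19.7 CPM (log2 difference 0.72, SE 0.11, adjusted p = 1.3e-05), a call that DESeq2 did not make (adjusted p = 0.17). Mir339, in 3110082I17Rik, lay under the strongest member on CD, chr5:139362144-139375591 (+877), with 382, 358 and 273 CPM on CD and 258, 231 and 275 on HFD. CD D, the lowest on CD, was just below HFD D, and the fall from 338 ± 57.1 to 255 ± 22.1 CPM (log2 difference −0.41, SE 0.08, adjusted p = 4.2e-04) was lost without HFD B (adjusted p = 0.059). Mir6538, in Rnf144a, an E3 ubiquitin ligase gene, fell from 78.0 ± 6.10 to 57.9 ± 6.71 CPM with no overlap (log2 difference −0.43, adjusted p = 0.0012, and 0.084 without HFD B). Mir3073b, in Aspg, the asparaginase gene, fell from 226 ± 28.6 to 187 ± 11 CPM (−0.27, adjusted p = 0.034). The Mir3073b call was lost in 6 of 12 alternatives, with adjusted p = 0.16 in DESeq2, 0.48 without CD D, 0.058 without HFD A and 0.36 without HFD B.

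Between 1000 and 10000 bases, Mir6922 lies in Srebf1, the gene of the lipogenic factor SREBP-1. Its peak, chr11:60199623-60213905, also holds 1 of the Srebf1 starts in RefSeq and the Mir6921 hairpin. It had 200, 190 and 220 CPM on CD and 297, 278 and 223 on HFD, with HFD D only just above CD D. The log2 difference was 0.39 (SE 0.08, adjusted p = 6.9e-04, and 0.069 without HFD A). The other rise in this class was the Mir6364-named peak in Prex1, a Rac exchange factor gene, from 5.36 ± 0.72 to 9.95 ± 2.31 CPM (log2 difference 0.90, adjusted p = 0.0019, and 0.098 without HFD A).

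The falls between 1000 and 10000 bases that are not at Mir5098 or Mir6995 were mostly of modest size. Mir7235 fell from 59.6 ± 5.25 to 43.4 ± 1.14 CPM (log2 difference −0.46, SE 0.09, adjusted p = 0.0011), and in every alternative. Mir7083 has a pair of fallen peaks in Dock6, a Cdc42 and Rac exchange factor gene: 3.73 to 1.47 CPM at +3982 (−1.37, adjusted p = 0.0015, and 0.086 without HFD B) and 10.8 to 6.28 CPM at +2372 (−0.80, adjusted p = 0.0066). The second Mir7083 call was lost without CD A (0.060), HFD A (0.16) or HFD B (0.074). The small second Mir339 peak at +8170 had 3.93 and 1.73 CPM (log2 difference −1.15, adjusted p = 0.0066). That call was lost with DESeq2 (0.053) and on leaving out CD A (0.071), CD C (0.062), HFD B (0.062) or HFD D (0.053).

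Mir17 starts the Mir17 to Mir92-1 cluster, a set of cell growth microRNAs made from the transcript Mir17hg. The peak at chr14:115040115-115042630, 2298 bases upstream, had 141, 142 and 170 CPM on CD and 118, 112 and 139 on HFD. The groups did not overlap, but HFD D and CD A were nearly equal, and the log2 difference was −0.30 (SE 0.08, adjusted p = 0.028). The Mir17 call was lost in 6 of 12 alternatives, such as with DESeq2 (adjusted p = 0.15) or on leaving out CD C (0.055), CD D (0.34), HFD A (0.21) or HFD B (0.40). Mir17hg RNA was 2.58, 3.78, 2.73 and 2.76 CPM on CD and 1.72, 1.05, 1.68 and 1.28 on HFD. The groups did not overlap there either, and it fell from 2.96 ± 0.55 to 1.43 ± 0.32 CPM (SD, n = 4; log2 difference −1.05, SE 0.22, adjusted p = 0.016), a call lost on leaving out CD B (0.053) or HFD B (0.058).

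The remaining falls in this class were Mir203, Mir6918, Mir1936 and Mir5134. DESeq2 did not make the calls of Mir203 (adjusted p = 0.24), Mir1936 (0.10) or Mir5134 (0.073). Mir203, an epithelial microRNA, went from 166 ± 31.6 to 134 ± 12 CPM with overlapping diets (log2 difference −0.30, adjusted p = 0.036), and lost the call in 6 of 12 alternatives, with 0.62 without CD D, 0.071 without HFD A and 0.48 without HFD B. Mir6918 went from 19.1 to 12.5 CPM (−0.59, adjusted p = 0.0095, with 0.056 without CD A and 0.077 without HFD D). Mir1936, in Itpk1, went from 19.4 to 13.8 CPM (−0.50, adjusted p = 0.042), lost without CD A (0.17), CD C (0.072), CD D (0.16), HFD A (0.29) or HFD B (0.46). Mir5134, in Ccnf, went from 7.20 to 4.32 CPM (−0.74, adjusted p = 0.025), lost without CD A (0.094), CD C (0.085), CD D (0.053), HFD A (0.063) or HFD B (0.31).

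Beyond 10000 bases, outside Mir6995, Mir5098, Mir29b-1 and Mir122, 2 peaks rose and 5 fell. The firmest was Mir7659 at +42446, in Agpat3, an acyltransferase gene of phospholipid synthesis: chr10:78296031-78299490 had 69.6, 62.1 and 69.3 CPM on CD and 44.6, 46.4 and 50.1 on HFD. It fell with no overlap, a call kept in every alternative (log2 difference −0.51, SE 0.09, adjusted p = 1.0e-04). Mir8101, in Hdac5, a histone deacetylase gene, fell from 142 ± 7.06 to 118 ± 4.62 CPM (−0.27, adjusted p = 0.036). The Mir8101 call was lost with DESeq2 (0.074) and without CD A (0.26), CD C (0.078), CD D (0.062), HFD A (0.12) or HFD B (0.31). Mir6934 fell from 62.0 to 48.6 CPM (−0.35, adjusted p = 0.017, lost on leaving out CD A (0.057), CD D (0.086), HFD B (0.079) or HFD D (0.054)).

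The rest of the far changes were weaker calls. DESeq2 did not make those of Mir499 (adjusted p = 0.145), Mir138-1 (0.057) or Mir8110 (0.11). Mir499, in Trpc4ap, fell from 46.1 to 35.9 CPM (log2 difference −0.36, adjusted p = 0.0495). The Mir499 call was kept in only 4 of 12 alternatives, and was lost among others without CD A (0.40), CD D (0.15), HFD B (0.42) or HFD D (0.061). Mir138-1 fell from 5.78 to 2.82 CPM (−1.05, adjusted p = 0.0062), lost without CD A (0.066), CD C (0.18) or HFD A (0.063). Mir1943, in Tmem184b, rose from 15.9 to 22.8 CPM (0.52, adjusted p = 0.020), lost without CD A (0.33), HFD A (0.19) or HFD B (0.094). Mir8110, at −162099, rose from 1.65 to 3.49 CPM (1.10, adjusted p = 0.017), lost without CD C (0.15), CD D (0.10), HFD A (0.060) or HFD B (0.39).

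Among the microRNAs listed for liver and metabolism, 31 of 45 had a peak named for them, with 161 peaks, of which 2 rose, both at Mir802, and 9 fell, at Mir122, Mir29b-1 and Mir203. That is 6.83% of the 161, beside 2.39% of all peaks (0.835% higher and 1.55% lower), and the list was chosen with results of these data known. The median log2 difference of the 161 was −0.07, beside −0.00 for all peaks. Strong peaks over other liver microRNAs did not pass the test: Mir22 had 187 ± 3.89 CPM on CD and 192 ± 3.48 on HFD, the Mir194-2 peak that also covers Mir192 had 133 ± 4.51 and 143 ± 17.3, Mir148a had 111 ± 17.6 and 130 ± 7.24, and Mirlet7i had 143 ± 6.83 and 141 ± 15.7. Mir33, which lies in Srebf2, had a weak peak at −406 (1.31 and 1.23 CPM), Mir21a one at −66 (5.21 and 3.49) and Mir107, in Pank1, one at +215 (13.6 and 11.3), and none passed. Mir375 had 3.26 ± 0.35 and 4.93 ± 0.29 CPM at +57 without overlap, with an adjusted p of 0.19. The strong Mir148a peak (adjusted p = 0.19) stayed short of the threshold in 10 of 12 alternatives, with a lowest adjusted p of 0.0076.

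Of 14 microRNAs listed for the circadian clock, 9 had peaks, 72 in all, and 8 fell (11.1%, beside 1.55% of all peaks that fell). These are the falls of Mir122 and Mir29b-1 already described and counted in the liver list, and no other listed name had a call. Mir122 and Mir29b-1 held 14 and 40 of the 72 peaks, which are not independent of each other. This list too was chosen with results of these data known. Mir219a-1, a clock-controlled microRNA, had 138 ± 3.68 CPM on CD and 130 ± 14.8 on HFD at −137 (adjusted p = 0.79). MicroRNAs listed as markers of other cells had 30 peaks in all and none passed the test in edgeR or DESeq2, with 6 at an unadjusted p under 0.05. They were 8 for epithelium, 3 for erythroid cells, 2 for lymphocytes, 5 for myeloid cells and 12 for stellate and smooth muscle cells. The endothelial list had none. The blood cell microRNA Mir142 had 9.20 ± 1.49 and 10.3 ± 1.94 CPM at −52, and the smooth muscle microRNA Mir145a 4.37 ± 0.54 and 4.30 ± 0.33 CPM at −379.

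In polyA RNA, 897 of 12334 genes (7.27%) changed between the diets, 3.63% up and 3.64% down. Of 57 host genes and genes that hold a named peak, 53 were measured, and 8 changed (15.1%), 4 up and 4 down. Their median log2 difference was 0.00, beside 0.01 for all genes, and 26.4% of them had no overlap between the diets, against 14.3% of all genes. Peaks were named partly for their change, so this share is a description.

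**Figure D5:**
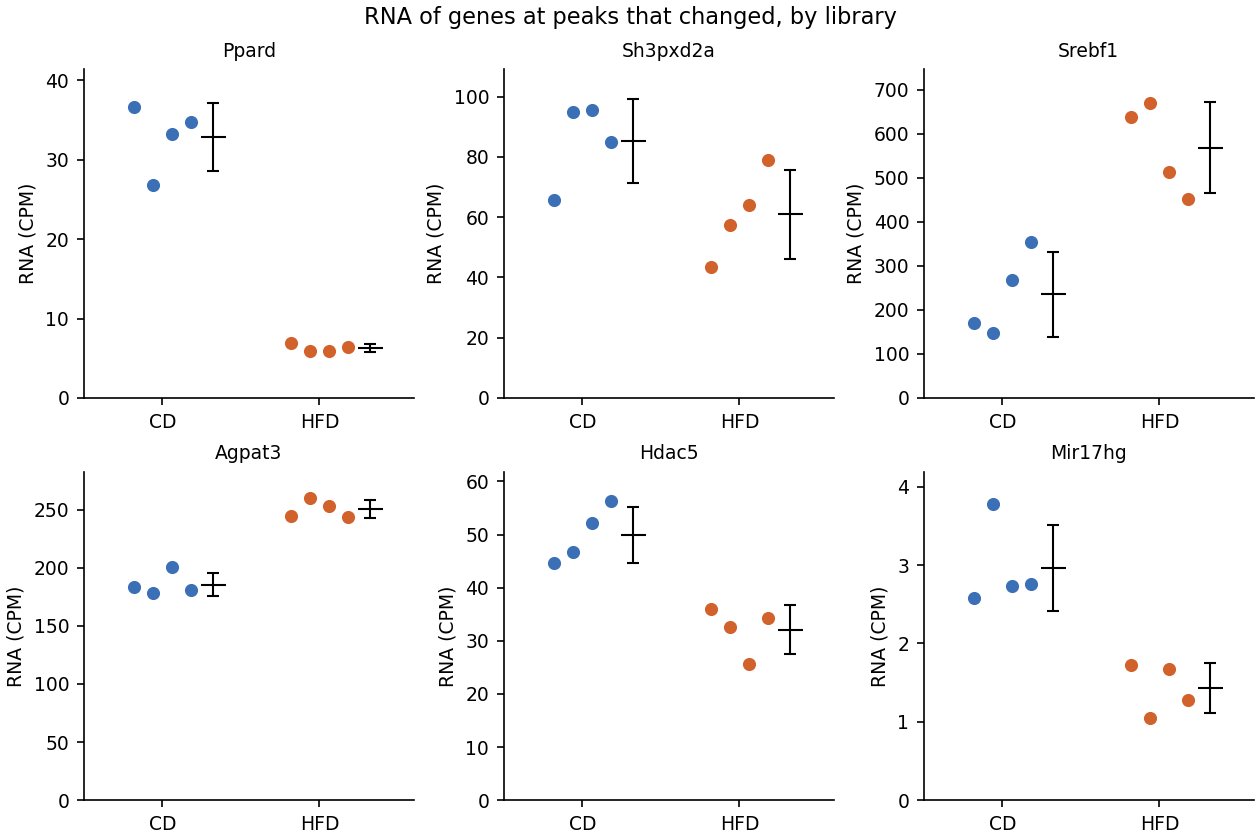
RNA level in CPM of 6 genes in each of the 4 libraries per diet, with the mean and SD (bars). HFD is below CD without overlap for Ppard, Hdac5 and Mir17hg, above it for Srebf1 and Agpat3, and overlaps CD for Sh3pxd2a.

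RNA and H3K9ac at these places did not always move the same way. Srebf1 RNA rose from 235 ± 95.7 to 568 ± 103 CPM (log2 difference 1.27, SE 0.26, adjusted p = 0.014, and 0.051 without HFD B) while the Mir6922 peak rose. Hdac5 RNA fell from 49.9 ± 5.28 to 32.1 ± 4.57 CPM (log2 difference −0.64, SE 0.13, adjusted p = 0.012) with the Mir8101 peak, and Itpk1 RNA from 27 ± 2.60 to 20.6 ± 0.97 CPM (−0.39, adjusted p = 0.043) with the Mir1936 peak. Itpk1 lost its call in 8 of 14 alternatives, with adjusted p of 0.058 to 0.13 without 1 or another of CD A, B, C or D or HFD B, C or D. Agpat3 went the other way from its Mir7659 peak: 183, 178, 201 and 181 CPM on CD and 244, 260, 253 and 244 on HFD, a rise without overlap (log2 difference 0.43, SE 0.08, adjusted p = 0.012, and 0.061 without HFD B). Fads1 RNA rose from 601 ± 41.9 to 1017 ± 195 CPM (0.76, SE 0.14, adjusted p = 0.010), while its Mir6993 peak had 6.11 and 8.99 CPM and did not pass (adjusted p = 0.099).

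Of the host genes proper, 27 of 29 were measured and 2 changed (7.41%), a share near the 7.27% of all genes. Ppargc1b, the coactivator PGC-1β that hosts Mir378a, had 2.98, 2.61, 3.53 and 5.13 CPM on CD and 8.82, 6.63, 6.61 and 8.06 on HFD, and rose without overlap (log2 difference 1.08, SE 0.21, adjusted p = 0.012). Srebf2, the cholesterol synthesis regulator that hosts Mir33, fell from 66.6 ± 2.95 to 45.5 ± 7.58 CPM (−0.55, SE 0.12, adjusted p = 0.021), lost without CD A (0.065), CD C (0.065) or HFD B (0.060). The Srebf2 intron peak named for Mir33, at −13818, had 22.9 and 23.1 CPM (adjusted p = 0.99). Prex1 and Tmem184b, which hold the Mir6364 and Mir1943 peaks that rose, had log2 RNA differences of 0.67 and 0.56 and adjusted p of 0.059 and 0.054. They stayed short of the threshold in 10 of 13 and 12 of 14 alternatives, with lowest adjusted p of 0.0087 and 0.0028.

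No gene of the machinery that makes and loads microRNAs passed the test. Of 18 genes listed, including Drosha, Dgcr8, Dicer1 and the Argonaute genes, 16 were measured, with log2 differences of −0.25 to 0.25 and a lowest adjusted p of 0.18 in edgeR. Of the 16, 1 had an unadjusted p under 0.05, and DESeq2 called none. Of 10 microRNA-named entries in the RNA table, Mir17hg alone passed. Mir22hg, the host transcript of Mir22, had 32.6 ± 7.03 and 31.3 ± 5.28 CPM, and Mir143hg 0.67 ± 0.15 and 0.40 ± 0.11 CPM (adjusted p = 0.19).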

How the data were processed

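The authors deposited 1 table of read counts per H3K9ac peak and 1 of read counts per gene, with their own log2 fold change and p-value or false discovery rate columns. Coordinates are in mm10, per the submitters' processing notes. The aligner, peak caller, counter and strand setting were not given in the sources used here. Lines that repeat a peak were merged, and 4999 RNA lines without a gene name were left out. Counts of all 57499 peaks (3 libraries per diet) or 12334 genes (4 per diet) were tested for diet alone with edgeR 4.0.16 (R 4.3.3, TMM scaling, filterByExpr, which removed none, quasi-likelihood test, Benjamini-Hochberg adjustment over all features, two-sided, threshold 0.05). DESeq2 1.42.0 was an alternative. On counts simulated for all peaks, 60% of 2-fold and 97% of 4-fold changes were recovered, with 7 false calls. The changed peaks were drawn from those with a mean of at least 20 counts, and the spread between libraries was set, not estimated. The set spread was wider than the common spread later estimated from the H3K9ac libraries, so these shares are not the recovery in these data. Recovery in weaker peaks was not tested. Named peaks are those of the Mir802, Mir6995 and Mir5098 loci, the 20 changed members of smallest p, the 4 strongest per class, the closest per listed microRNA, the 6 largest rises and falls and the 5 commonest names. The other changed members, and the strongest peaks of listed microRNAs, were added after their values were seen. Members and lists were chosen with earlier results of these data known.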

Additional observations from a re-analysis of the deposited data

Results flagged for a closer look

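Within 106 groups of 4 RNA libraries, 3 held a library far from the other 3, and chance alone gives about 1 in 20. Huwe1, the host of Mir98, had 180.0 CPM in HFD A against 262 to 274 in the other HFD libraries. Igf2, the host of Mir483, had 0.386 CPM in CD C against 0.758 to 0.826. Rnf24 had 10.1 CPM in CD B against 6.44 to 7.07. None of these genes passed the diet test.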

How the results depend on the processing

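Of the 46 peak calls 16 and of the 8 RNA calls 4 held in every alternative that gave them an adjusted p, and no value that had passed changed sign. Among these, the Mir6995 peak at −42103 had 10 of 12 alternatives and Ppargc1b 13 of 14. Some values that had not passed did so in an alternative, such as the peaks of Mir148a, Mir7085, Mir6397 (lowest adjusted p 0.0067) and Mir6993 (0.030). So did the RNA of Prex1, Tmem184b and Sh3pxd2a (0.049). Leaving out single libraries gave 24 to 63 changed members and 4 to 9 host or overlapped genes. The changed share ran from 1.76% to 3.96% within 1000 bases, 1.04% to 3.09% between 1000 and 10000 and 1.22% to 3.04% beyond, and the lowest were without HFD B. DESeq2's test, which adjusted p for 945 members, gave 31 members, a share of 3.25% between 1000 and 10000 bases, and 13 genes; it called 798 of all peaks, against 1372. A filter at the median count, which kept 819 members, gave shares of 4.03% and 3.81% in the 2 farther classes. Keeping only names at their RefSeq place, chosen after seeing the data, left 40 changed members. In H3K9ac the diets share only the letters A and D, with correlations of deviations of 0.09 and 0.08. In RNA the correlations were 0.29 for A, 0.06 for B, 0.23 for C and −0.22 for D. The limit set for pairing was 0.1, and RNA A and C lay above it. Whether a letter pairs animals across the diets was not tested further. A replicate block by letter gave 51 changed members, 39 of them among the 46, and 9 genes. It ended calls at Mir122 −30279 (adjusted p = 0.064), Mir6995 −8376 (0.092) and −50044 (0.15), Mir8110 (0.44), Mir5134 (0.21), Mir138-1 (0.058), Mir1936 (0.10), Itpk1 (0.050) and Mir17hg (0.050). The depth limits what weak peaks can show, since the median member had 2.19 CPM on CD.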
